A study of Homo sapiens with 18 samples.

Results

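SK-N-SH, a human neuroblastoma cell line, was exposed to withaferin A (WA) at 1 µM for 24 h and set against the same line given the solvent DMSO for 24 h. The samples were chosen by their labelled line and treatment, which took 6 of the 18 samples of the series, 3 biological replicates with WA and 3 with DMSO. The other 12 samples were SK-N-SH with withanone (WN) at 1 µM for 24 h, and IMR-32, another neuroblastoma line, with WA, WN or DMSO for the same time. All cells were grown in RPMI medium with fetal calf serum and glutamine, so both treatments share that medium, and total RNA was hybridised to Illumina HumanHT-12 v4 arrays. SK-N-SH is a line known to lack MYCN amplification and to hold neuron-like and substrate-adherent cells, whereas IMR-32 is known to carry amplified MYCN. Each line is 1 culture model, so p-values measure the spread between replicates of that line and not between tumours. In such bulk RNA, fewer cells of a type and less RNA per cell cannot be told apart.

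WA is a steroidal lactone (a withanolide) of the plant Withania somnifera, and its reactive ring binds cysteine thiols of proteins. Cells meet such electrophiles with several known programmes. The factor NRF2, released from its inhibitor KEAP1, binds antioxidant response elements and turns on genes of glutathione, thioredoxin and quinone metabolism. HSF1 turns on heat shock proteins, and kinases that phosphorylate the initiation factor eIF2 raise translation of ATF4, which with its partner CHOP turns on genes of amino acid supply and of stress signalling. Ferroptosis, the form of cell death the series concerns, is driven by iron and lipid peroxidation and is known to be held back by the glutathione peroxidase GPX4.

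Levels are log2 intensities after background correction and quantile normalization, and a difference is the mean of the 3 WA arrays minus the mean of the 3 DMSO arrays, ± its standard error, with 3 arrays per group. A gene counts as changed if its p from limma, adjusted over all 11715 genes tested by the Benjamini-Hochberg method, was under 0.05. By that threshold 961 genes were higher with WA (8.2% of those tested) and 827 were lower (7.06%), together 1788 (15.3%), and 981 (8.37%) changed by 2-fold or more, 462 higher (3.94%) and 519 lower (4.43%). The median difference over all genes was 0.032. Between 18662 and 20781 of 47222 probes were detected on the 6 arrays. Of 10 adrenergic neuroblastoma markers 8 were measured and detected on all 3 DMSO arrays, among them the transcription factors PHOX2A, HAND2, GATA2, GATA3 and ISL1. The probe of TH, tyrosine hydroxylase, did not pass the detection filter, so it goes without a value. Of 12 immune markers 2 were measured and PTPRC, which marks all leukocytes, did not pass the detection filter.

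The 3 WA arrays did not respond equally. Set against the DMSO mean, WA replicate 1 had 385 genes at least 2-fold higher and 365 at least 2-fold lower, against 908 and 1105 on WA replicate 2 and 910 and 1083 on WA replicate 3. The first principal component of the 6 arrays held 63.7% of the variance and placed the WA arrays at -7.30, -47.0 and -51.3 and the DMSO arrays at 41.8, 40.2 and 23.7. WA replicate 1 also had the lowest lower-quartile signal of the 6 arrays, 99.5 against 106 to 108 on the other 5, and the part of this in the smaller response was not tested. Over the 1788 changed genes the difference on WA replicate 1 was, at the median, 0.701 times the mean of the other two WA arrays. These genes were called with WA replicate 1 in the fit. Over all genes tested, the slope of its differences on the mean of the other WA arrays was 0.485. The same slope was 1.11 for WA replicate 2 and 1.10 for WA replicate 3. The number of changed genes was 3012 without WA replicate 1, 168 without WA replicate 2, 434 without WA replicate 3, 25 without DMSO replicate 1, 4 without DMSO replicate 2 and 1643 without DMSO replicate 3. All 1788 genes kept the direction of their difference in each of these 6 fits. That was fixed beforehand for 1786 of them, whose groups did not overlap. Of all 11715 genes tested, 4443 (37.9%) had WA and DMSO levels without overlap. Where a lack of overlap is stated below for a changed gene, it describes the levels and adds little to passing the threshold. The 4 genes still called without DMSO replicate 2 were HMOX1, NQO1, TXNIP and TRIL.

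**Figure D1:**
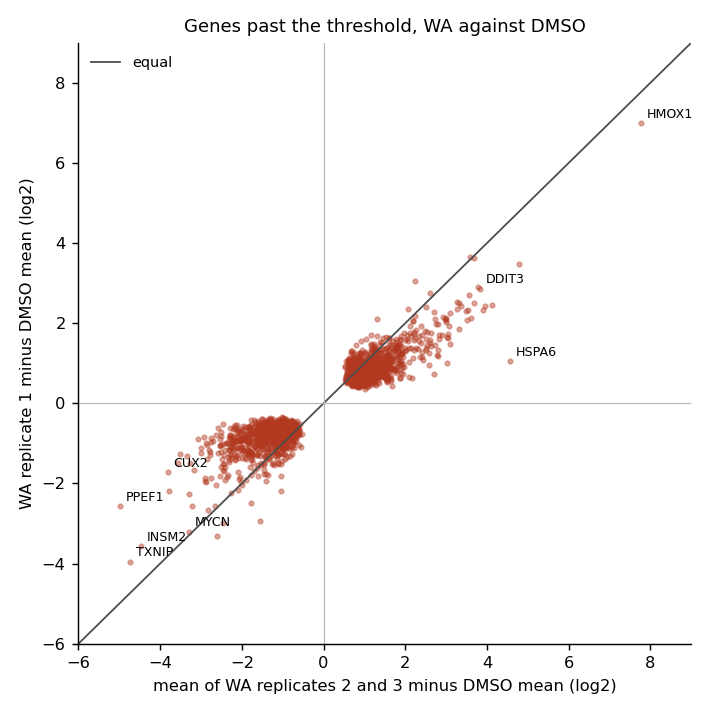
Log2 difference from the mean of the 3 DMSO arrays for the 1788 genes that passed the threshold, with WA replicate 1 on the vertical axis and the mean of WA replicates 2 and 3 on the horizontal axis. Points lie mostly between the line of equal response and the horizontal zero line, with a median ratio of 0.701, and HSPA6 and PPEF1 lie far from the line.

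Among changed genes the gap between WA replicate 1 and the nearest of the other two WA arrays was widest in HSPA6, OLFM1, PPEF1, CUX2, MXD3 and HKDC1. HSPA6, a stress-inducible HSP70, had levels of 5.87, 9.78 and 8.98 with WA, against 4.64, 4.89 and 4.91 with DMSO. Its DMSO probe was detected on 1 of 3 arrays, and the WA arrays lay above all DMSO arrays although replicate 1 was far below the other two. The difference of 3.40 ± 0.86 (adjusted p 0.0373) is a mean over these unlike replicates. PPEF1, a protein phosphatase, had levels of 7.64, 5.60 and 4.86 with WA, against 10.42, 10.32 and 9.86 with DMSO. It was detected on 2 of 3 WA arrays, and the groups did not overlap.

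The largest rise among the 1788 changed genes was in HMOX1 and the largest fall in TXNIP. HMOX1, heme oxygenase 1, which degrades heme to biliverdin, iron and carbon monoxide, had levels of 12.60, 13.90 and 12.86 with WA, against 5.54, 5.61 and 5.68 with DMSO. The groups lay far apart with a narrow DMSO spread, and the difference was 7.51 ± 0.32, a 183-fold higher intensity (adjusted p 0.000162). At the other end stood TXNIP, the thioredoxin-interacting protein and an inhibitor of glucose uptake, with 7.35, 6.26 and 6.89 with WA, against 11.08, 11.34 and 11.49 with DMSO and a difference of -4.47 ± 0.28 (adjusted p 0.0017). It was the one of 6 measured arrestin-family genes that passed the threshold, and the list had a median of 0.042. Next on the higher side came the stress cytokine GDF15 at 4.35 ± 0.48, the early growth response factor EGR1 at 3.66 ± 0.58, the 7SK small nuclear RNA gene RN7SK at 3.60 ± 0.34 and the spermidine acetyltransferase SAT1 at 3.56 ± 0.48. Next on the lower side came PPEF1 at -4.17 ± 0.62, the neuroendocrine factor INSM2 at -4.16 ± 0.58 and, after MYCN, the membrane protein TMEM100 at -3.25 ± 0.45.

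**Figure D2:**
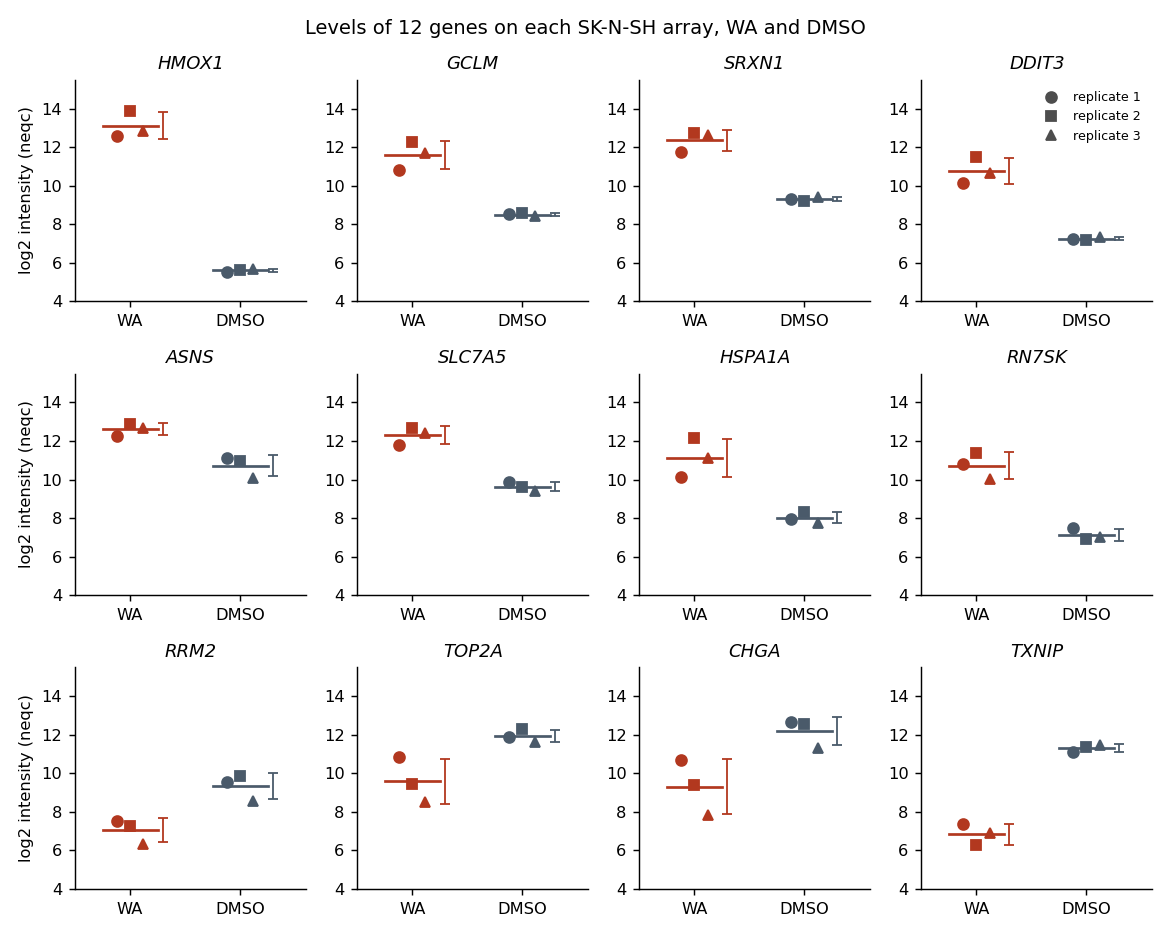
Log2 intensity of 12 genes on each SK-N-SH array, WA on the left and DMSO on the right of each panel, with markers for replicates 1 to 3, a bar for the mean and an error bar for the SD of 3 arrays. HMOX1 lies between 12.60 and 13.90 with WA and between 5.54 and 5.68 with DMSO, and in RRM2, TOP2A, CHGA and TXNIP the WA arrays lie below the DMSO arrays.

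NRF2 targets rose as a family. Of 32 measured genes in 5 lists of such targets 22 were higher and none was lower, where 8.2% of all genes were higher, with a median of 1.26 against 0.032 over all genes. In glutathione synthesis and export 4 of 6 were higher: GCLM, the regulatory chain of the rate-limiting ligase of glutathione synthesis, the cystine transporter chains SLC7A11 and SLC3A2, and the conjugate exporter ABCC3. GCLM had levels of 10.81, 12.27 and 11.71 with WA, against 8.51, 8.57 and 8.42 with DMSO, fully apart, and differed by 3.10 ± 0.34 (adjusted p 0.0084). SLC7A11, whose cystine import feeds glutathione synthesis, had 6.50, 8.13 and 7.77 with WA, against 4.47, 4.95 and 4.49 with DMSO. Its probe was detected on 1 DMSO array, all WA arrays were above all DMSO arrays, and the difference was 2.83 ± 0.40 (adjusted p 0.0106). The other 2 members of that list were positive and did not pass the threshold.

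In thioredoxin and peroxide reduction 5 of 6 were higher. SRXN1, sulfiredoxin, which restores oxidised peroxiredoxins, had 11.74, 12.71 and 12.63 with WA, against 9.29, 9.23 and 9.40 with DMSO and differed by 3.05 ± 0.27 (adjusted p 0.00521). TXNRD1, the cytosolic thioredoxin reductase, differed by 2.69 ± 0.28, its substrate TXN by 1.24 ± 0.20 and the glutathione reductase GSR by 1.29 ± 0.31 (other probe 0.34). In quinone and carbonyl detoxification 7 of 9 were higher, among them NQO1, NAD(P)H quinone dehydrogenase, with 12.60, 12.91 and 13.09 with WA, against 10.24, 10.28 and 10.43 with DMSO and a difference of 2.55 ± 0.19 (adjusted p 0.00358). Its other probe gave 0.95. The prostaglandin reductase PTGR1 differed by 2.27 ± 0.37 (other probe 2.09), the epoxide hydrolase EPHX1 at 1.89 ± 0.24 and the aldo-keto reductase AKR1C3 at 1.56 ± 0.40. NADPH supply had 3 of 5 higher, with malic enzyme ME1 at 1.58 ± 0.19 and the pentose phosphate enzyme PGD at 0.99 ± 0.18. In heme and iron handling 3 of 6 were higher, HMOX1, the biliverdin reductase BLVRB at 1.75 ± 0.22 and the heme transporter SLC48A1 at 1.30 ± 0.21.

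The regulators moved too: 5 of 8 were higher. NFE2L2, which encodes NRF2 itself, had 9.81, 11.02 and 10.66 with WA, against 9.30, 9.21 and 9.32 with DMSO and differed by 1.22 ± 0.30 (adjusted p 0.0339). Its inhibitor KEAP1 differed by 0.73 ± 0.17 (adjusted p 0.0282). The small MAF partners MAFF and MAFG were higher by 1.46 ± 0.23 and 1.35 ± 0.17, and SQSTM1, the autophagy receptor p62 that can sequester KEAP1, by 2.29 ± 0.28.

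Promoters of 2 NRF2 targets, chosen after their values were seen, are shown for their antioxidant response elements, from 250 bases before to 50 bases after the gene's start in RefSeq on GRCh38.p14. The motif searched was TGACNNNGC on both strands, which 13.6% of all 27305 promoters in the table hold, and 15.2% of the promoters of the tested genes. It was found in 7 of the 24 promoters matched to NRF2 targets (29.2%), a description of these windows alone. It also stood in 23.5% of the matched promoters of the ATF4-CHOP core, 3 of 10 of those of amino acid transporters and 6 of 12 of those of lysosome genes. The looser TGANNNNGC was in 41.7% of the NRF2 target promoters and in 43.2% of those of tested genes. Capitals mark the motif. GCLM lies at chr1:93909381-93909680 on the minus strand with 1 motif beginning 34 bases before the start, and TXNRD1 at chr12:104215529-104215828 on the plus strand with motifs beginning 99 and 8 bases before the start.
GCLM: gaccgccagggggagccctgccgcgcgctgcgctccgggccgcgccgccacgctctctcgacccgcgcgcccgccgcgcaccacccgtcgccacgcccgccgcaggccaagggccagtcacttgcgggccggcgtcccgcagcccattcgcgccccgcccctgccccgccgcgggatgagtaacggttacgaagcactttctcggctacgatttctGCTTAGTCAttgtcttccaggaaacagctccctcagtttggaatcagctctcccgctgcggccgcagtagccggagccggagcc
TXNRD1: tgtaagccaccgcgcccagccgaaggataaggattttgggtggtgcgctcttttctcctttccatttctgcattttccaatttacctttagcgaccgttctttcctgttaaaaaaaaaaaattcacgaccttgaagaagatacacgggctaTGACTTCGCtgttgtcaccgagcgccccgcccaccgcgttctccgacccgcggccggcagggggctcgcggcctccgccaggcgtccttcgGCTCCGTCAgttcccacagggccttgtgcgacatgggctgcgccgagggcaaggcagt

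Genes of the ATF4 and CHOP programme rose as well. In the core list 12 of 18 were higher and none was lower, with a median of 1.87. DDIT3, which encodes CHOP, had 10.12, 11.48 and 10.68 with WA, against 7.25, 7.19 and 7.33 with DMSO, with no overlap, and differed by 3.51 ± 0.32 (adjusted p 0.00521). GDF15 had 12.07, 13.19 and 13.55 with WA, against 8.00, 8.24 and 9.51 with DMSO (adjusted p 0.0084). TRIB3, a pseudokinase that feeds back on this programme, differed by 3.38 ± 0.40, ATF3 by 3.13 ± 0.37 and the mTORC1 inhibitor SESN2 by 2.09 ± 0.30. CHAC1, which degrades glutathione, was not well above background on any DMSO array and exceeded them by at least 7.37-fold on the WA arrays (adjusted p 0.00545). ATF4 itself differed by 1.34 ± 0.20 (adjusted p 0.0117), but its other probes gave differences of -0.28 to 1.47.

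Amino acid supply moved with it. Of 11 amino acid transporters 7 were higher and none lower, with a median of 1.44. SLC7A5, which pairs with SLC3A2 to carry large neutral amino acids, had 11.77, 12.68 and 12.41 with WA, against 9.85, 9.62 and 9.40 with DMSO, fully apart, and differed by 2.67 ± 0.26 (adjusted p 0.00545). SLC3A2, the heavy chain of both SLC7A5 and SLC7A11, differed by 3.28 ± 0.32 (adjusted p 0.00545), and the glycine transporter SLC6A9, detected on 2 DMSO arrays, by 2.56 ± 0.37, where its other probe gave 0.34. Enzymes of serine, asparagine and one-carbon synthesis were split, with 8 of 13 higher and 2 lower. The asparagine synthetase ASNS had 12.26, 12.88 and 12.67 with WA, against 11.10, 10.94 and 10.09 with DMSO and differed by 1.90 ± 0.30 (adjusted p 0.0128). The serine enzyme PSAT1 differed by 1.89 ± 0.27, the mitochondrial folate enzyme MTHFD2 by 1.79 ± 0.22 and the cystathionine lyase CTH by 1.63 ± 0.30. The 2 lower members were cytosolic folate enzymes, MTHFD1 at -1.63 ± 0.25 (adjusted p 0.0122) and SHMT1 at -1.09 ± 0.23 (adjusted p 0.0223), whose other probes gave -0.82 to -0.26.

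Cytosolic aminoacyl-tRNA synthetases, which charge tRNAs for translation, had 6 of 18 higher and none lower, with a median of 0.55. The largest were GARS1 at 1.46 ± 0.37, AARS1 at 1.30 ± 0.20, EPRS1 at 1.26 ± 0.28 and WARS1 at 1.07 ± 0.25. Their mitochondrial counterparts had none of 15 higher and 2 lower, CARS2 at -0.78 ± 0.18 and SARS2 at -0.87 ± 0.19. Among 17 eIF2 kinases and initiation factors EIF2S2 and EIF1 were higher, by 1.25 ± 0.16 and 0.73 ± 0.18, and EIF2B5, a subunit of the exchange factor for eIF2, was lower (-0.64 ± 0.18).

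The CHOP-ATF4 element TGATGNAA, searched on both strands, stood in 12 of the 52 matched promoters of these 4 lists (23.1%), against 1.73% of the promoters of tested genes and 3.67% of all promoters in the table. It stood in 2.19% of the matched promoters of all genes higher with WA and in 2.29% of those lower. Its holders IARS1, MARS1, NARS1 and SLC38A1 did not pass the threshold, and the windows of DDIT3, GDF15 and TRIB3 lack it. The 4 named genes with the largest change that hold it are shown, with the element in capitals. In SLC3A2 the capitals mark an antioxidant response element as well, which begins 37 bases before the start, whereas its CHOP-ATF4 element begins at base 38 after it. The element begins 209, 191 and 68 bases before the start in CHAC1, ATF3 and ASNS. The windows are chr11:62881449-62881748 for SLC3A2, chr15:40953221-40953520 for CHAC1 and chr1:212565157-212565456 for ATF3, on the plus strand, and chr7:97872359-97872658 for ASNS, on the minus strand.
SLC3A2: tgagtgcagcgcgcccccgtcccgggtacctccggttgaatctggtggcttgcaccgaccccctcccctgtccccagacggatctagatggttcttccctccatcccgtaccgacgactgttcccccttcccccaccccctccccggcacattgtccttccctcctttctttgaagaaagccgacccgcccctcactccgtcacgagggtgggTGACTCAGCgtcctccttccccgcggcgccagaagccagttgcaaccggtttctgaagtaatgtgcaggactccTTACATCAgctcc
CHAC1: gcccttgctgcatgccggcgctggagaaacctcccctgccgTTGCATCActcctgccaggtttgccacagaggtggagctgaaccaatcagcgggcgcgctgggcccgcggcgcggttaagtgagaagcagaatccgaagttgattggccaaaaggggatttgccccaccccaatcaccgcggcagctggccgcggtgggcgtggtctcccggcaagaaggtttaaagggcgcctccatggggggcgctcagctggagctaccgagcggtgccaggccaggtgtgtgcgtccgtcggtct
ATF3: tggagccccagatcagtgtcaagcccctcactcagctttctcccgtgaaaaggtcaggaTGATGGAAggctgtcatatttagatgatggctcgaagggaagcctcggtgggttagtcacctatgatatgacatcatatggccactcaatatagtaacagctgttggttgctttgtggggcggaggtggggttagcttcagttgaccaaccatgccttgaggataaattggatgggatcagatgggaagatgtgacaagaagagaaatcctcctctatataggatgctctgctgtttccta
ASNS: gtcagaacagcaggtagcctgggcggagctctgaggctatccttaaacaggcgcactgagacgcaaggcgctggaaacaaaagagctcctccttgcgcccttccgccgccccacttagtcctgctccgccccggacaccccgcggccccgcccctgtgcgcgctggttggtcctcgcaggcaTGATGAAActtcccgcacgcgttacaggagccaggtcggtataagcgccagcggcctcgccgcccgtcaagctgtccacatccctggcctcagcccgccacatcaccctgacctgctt

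Heat shock genes rose in part. Of 53 measured genes in 4 lists 16 were higher and 1 was lower, with a median of 0.386. HSP70 genes and their regulators had 7 of 16 higher. HSPA1A, the main inducible HSP70, had 10.15, 12.13 and 11.10 with WA, against 7.97, 8.33 and 7.76 with DMSO, with all WA arrays above all DMSO arrays, and differed by 3.11 ± 0.45 (adjusted p 0.011). Its near-identical copy HSPA1B differed by 2.26 ± 0.44, and the probes of the 2 copies may share transcripts. BAG3, a co-chaperone of HSP70, differed by 1.79 ± 0.32. The HSP40 family had 5 of 11 higher, DNAJB4 at 1.84 ± 0.38, DNAJC2 at 1.17 ± 0.22, DNAJB2 at 1.15 ± 0.21 (other probe 0.74) and DNAJB1 at 1.10 ± 0.26 among them. Among 16 small heat shock proteins and chaperonins ZFAND2A differed by 2.24 ± 0.38, HSPB1 by 1.16 ± 0.19 and the collagen chaperone SERPINH1 by 0.99 ± 0.17. HSP90 and its cochaperones had 1 of 10 higher, HSP90AA1 at 0.69 ± 0.17, whose other probes ran over -0.74 to 1.01, and 1 lower, the mitochondrial paralogue TRAP1 at -0.91 ± 0.21.

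The heat shock element, searched as 3 alternating units of GAA and TTC with 2 bases between neighbours on both strands, was in 6 of 48 matched promoters of these lists (12.5%), against 0.338% of the promoters of tested genes. Its holders CHORDC1, DNAJA1 and DNAJB6 did not pass the threshold. No match was found in the windows of the higher genes HSPA1A, HSPA1B, BAG3, ZFAND2A, HSPB1 and DNAJB1. The 2 changed members with the largest difference that hold it, picked after their values were seen, are shown with the element in capitals, HSPA6 at chr1:161524290-161524589 and SERPINH1 at chr11:75562003-75562302, both on the plus strand. The element begins 74 bases before the start in HSPA6 and 76 in SERPINH1, and in HSPA6 a further capital run 141 bases before the start is an antioxidant response element.
HSPA6: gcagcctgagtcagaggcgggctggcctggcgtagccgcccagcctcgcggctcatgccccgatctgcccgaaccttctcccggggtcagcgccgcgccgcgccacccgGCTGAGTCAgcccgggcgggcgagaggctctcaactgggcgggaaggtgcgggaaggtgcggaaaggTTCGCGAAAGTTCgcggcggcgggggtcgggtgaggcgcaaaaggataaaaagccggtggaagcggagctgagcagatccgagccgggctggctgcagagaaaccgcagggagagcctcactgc
SERPINH1: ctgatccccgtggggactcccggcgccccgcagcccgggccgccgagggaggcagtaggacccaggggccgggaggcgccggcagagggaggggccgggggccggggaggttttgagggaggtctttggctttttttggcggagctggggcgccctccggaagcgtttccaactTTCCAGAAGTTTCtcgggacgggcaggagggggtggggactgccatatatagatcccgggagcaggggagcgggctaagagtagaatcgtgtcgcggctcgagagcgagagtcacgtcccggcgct

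Folding genes of the endoplasmic reticulum rose in part. Of 19 targets of ATF6 and XBP1 5 were higher and none lower, with a median of 0.30. DNAJC3, an inhibitor of eIF2 kinases detected on 1 DMSO array, differed by 1.62 ± 0.23, XBP1 by 1.22 ± 0.29 and ATF6 by 1.06 ± 0.28. SEL1L, of the degradation complex of this organelle, was not well above background with DMSO and was at least 1.74-fold higher with WA. Proteasome subunits had 3 of 27 higher and none lower, near the share of 8.2% higher over all genes, with a median of 0.37. The 3 were PSMD8 at 1.07 ± 0.17, PSMA5 at 0.77 ± 0.18 and PSMA3 at 0.65 ± 0.16. With 1 spread estimated over all 18 arrays 15 of the 27 passed, where 35.9% of all genes changed, 18.5% higher and 17.4% lower.

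Autophagy receptors and ATG8 genes had 7 of 21 higher, SQSTM1, GABARAPL1 at 2.01 ± 0.32, CALCOCO2 at 1.40 ± 0.23 and MAP1LC3B at 1.08 ± 0.18 leading, and 11 with the replicate number as a block, where 11% of all genes were higher. SQSTM1 had 13.83, 14.68 and 14.48 with WA, against 11.74, 11.93 and 12.43 with DMSO, without overlap (adjusted p 0.0084). Lysosome and V-ATPase genes had 10 of 21 higher and none lower, with a median of 0.79. Their leaders were the cholesterol exporter NPC1 at 1.58 ± 0.22, the protease CTSL at 1.42 ± 0.21 (other probes 0.67 to 1.56), the proton pump subunit ATP6V1C1 at 1.29 ± 0.18 and the galactosidase GLA at 1.28 ± 0.25. CD68, a lysosomal glycoprotein abundant in macrophages, had 10.37, 10.64 and 10.70 with WA, against 8.61, 8.47 and 9.30 with DMSO, and CD14, a monocyte receptor, differed by 0.82 ± 0.19. The summed intensity of these 2 immune markers was 1410 to 1730 on the WA arrays, against 404 to 670 on the DMSO arrays, and their part in the result was not tested.

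**Figure D3:**
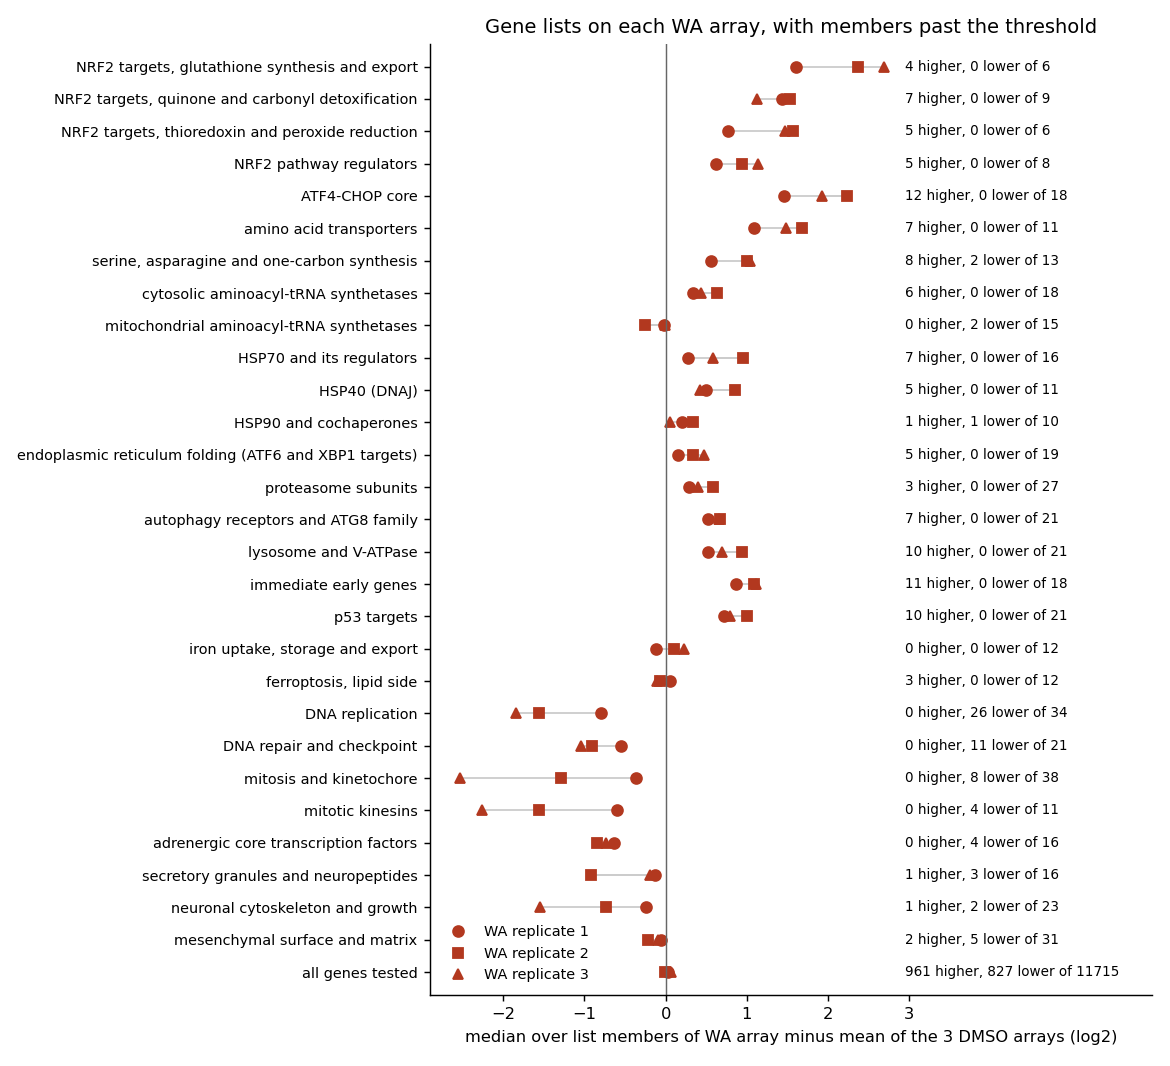
Median over the members of each gene list of the log2 difference from the DMSO mean, one symbol per WA array, with the number of members higher, lower and tested on the right. NRF2 lists and the ATF4-CHOP core lie right of zero on all 3 WA arrays and replication and mitosis lists left of it, with WA replicate 1 nearest to zero in replication and in mitosis.

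Genes that act on ferroptosis from the lipid side did not move together. Of 12 measured 3 were higher and none lower, with a median of -0.09. GPX4, which reduces lipid hydroperoxides, had 13.12, 13.11 and 13.29 with WA, against 13.25, 13.16 and 13.41 with DMSO, overlapping, and a difference of -0.1 ± 0.16 with a 95% interval of -0.48 to 0.28 (adjusted p 0.705). ACSL4, which loads polyunsaturated fatty acids into phospholipids, differed by 0.30 ± 0.22 (95% interval -0.20 to 0.80, adjusted p 0.368). AIFM2, also called FSP1, a ubiquinone reductase that guards against lipid peroxidation, had 7.15, 7.57 and 7.64 with WA, against 5.13, 5.42 and 5.82 with DMSO and differed by 1.99 ± 0.23 (adjusted p 0.0084). The other two higher members were CHAC1 and POR, cytochrome P450 reductase, at 0.92 ± 0.19. Iron uptake, storage and export had none of 12 past the threshold in either direction. FTH1, the ferritin heavy chain of iron storage, had no named probe, so it goes without a value. The transferrin receptor TFRC differed by 0.38 ± 0.22 (95% interval -0.12 to 0.88) and the iron exporter SLC40A1 by 0.39 ± 0.26 (adjusted p 0.337). The iron-regulatory aconitase ACO1 differed by 0.70 ± 0.26 (adjusted p 0.105, and 0.0362 with the replicate block).

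Immediate early genes, which many stimuli are known to induce within minutes, were higher in 11 of 18 members, with none lower and a median of 0.94. EGR1 had 11.14, 11.10 and 11.31 with WA, against 7.25, 6.33 and 9.00 with DMSO (adjusted p 0.0129), and the groups did not overlap. FOS, detected on 2 DMSO arrays, differed by 3.02 ± 0.43 and FOSB, detected on 1, by 1.70 ± 0.33. Among 15 feedback genes of the ERK kinase pathway 3 were higher, the phosphatases DUSP5 at 2.96 ± 0.36 and DUSP4 at 1.25 ± 0.27 and PHLDA1 at 2.31 ± 0.49 (other probe 1.10). NF-kB subunits and feedback genes had none of 12 past the threshold, and the largest differences were -1.10 ± 0.49 in the chemokine CCL2 (adjusted p 0.158, and 0.0442 with the block) and 0.93 ± 0.32 in IRF1 (adjusted p 0.0877, and 0.05 with the block, which called both).

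Targets of p53 had 10 of 21 higher and none lower, with a median of 0.86. CDKN1A, the cyclin-dependent kinase inhibitor p21, had 14.12, 14.49 and 14.32 with WA, against 12.51, 12.86 and 13.35 with DMSO, and the difference was 1.40 ± 0.24 (adjusted p 0.0149). SESN2, which ATF4 also induces, led the list, followed by the death receptor TNFRSF10B at 1.69 ± 0.23, GADD45A at 1.54 ± 0.32 and PHLDA3 at 1.43 ± 0.21. The BCL2 family was split. MCL1, which protects from cell death, was higher by 1.13 ± 0.27 and BBC3, also called PUMA, which promotes it, by 0.76 ± 0.20. BCL2 was lower, with 8.12, 7.26 and 7.32 with WA, against 9.67, 9.77 and 9.66 with DMSO and a difference of -2.13 ± 0.25 (adjusted p 0.0084). The death agonist BID was lower too (-0.85 ± 0.18, other probes -1.04 to -0.20). In polyamine metabolism SAT1 had 11.15, 13.00 and 12.60 with WA, against 8.35, 8.44 and 9.28 with DMSO and the oxidase SMOX differed by 1.48 ± 0.22, while the other 9 members did not pass.

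DNA replication genes fell as a group. Of 34 measured 26 were lower and none higher, where 7.06% of all genes were lower, with a median of -1.47, and the list median on the single WA arrays was -0.80, -1.56 and -1.84 against the DMSO mean. RRM2, the small subunit of ribonucleotide reductase, had 7.52, 7.28 and 6.33 with WA, against 9.57, 9.86 and 8.56 with DMSO, fully apart, and differed by -2.29 ± 0.41 (adjusted p 0.0157). UHRF1, which couples maintenance methylation to replication, differed by -2.12 ± 0.34 (other probe -1.40), the DNA ligase LIG1 by -1.95 ± 0.44 and the helicase cofactor CDC45 by -1.88 ± 0.37. Repair and checkpoint genes had 11 of 21 lower and none higher, among them the uracil glycosylase UNG at -1.99 ± 0.55, whose other probe gave -0.38, RAD51AP1 at -1.93 ± 0.38, the helicase BLM at -1.74 ± 0.35 and RAD54L at -1.66 ± 0.41. Among G1 regulators CDK2, a kinase of S phase entry, was lower (difference -1.70 ± 0.24, adjusted p 0.0106) and CDKN1A was higher, and the other 14 of 16 did not pass.

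Mitosis genes shifted by a like amount with a much wider spread between WA arrays. The median of 38 members was -1.44, yet 8 were lower by the threshold and none higher. On the single WA arrays the list median was -0.37, -1.29 and -2.53. With the replicate number as a block 30 of 38 were lower, where 22.3% of all genes changed and 11.3% were lower. TOP2A, the topoisomerase that untangles chromosomes, had 10.83, 9.43 and 8.49 with WA, against 11.90, 12.29 and 11.65 with DMSO, and differed by -2.36 ± 0.52 (adjusted p 0.0262). CCNA2, cyclin A, differed by -2.03 ± 0.53, the mitotic kinase CDK1 by -1.75 ± 0.43 and the separase ESPL1 by -1.75 ± 0.41. Mitotic kinesins had 4 of 11 lower, and 11 of 11 with the block, among them KIF11 at -1.59 ± 0.41 and KIF15 at -1.58 ± 0.27.

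**Figure D4:**
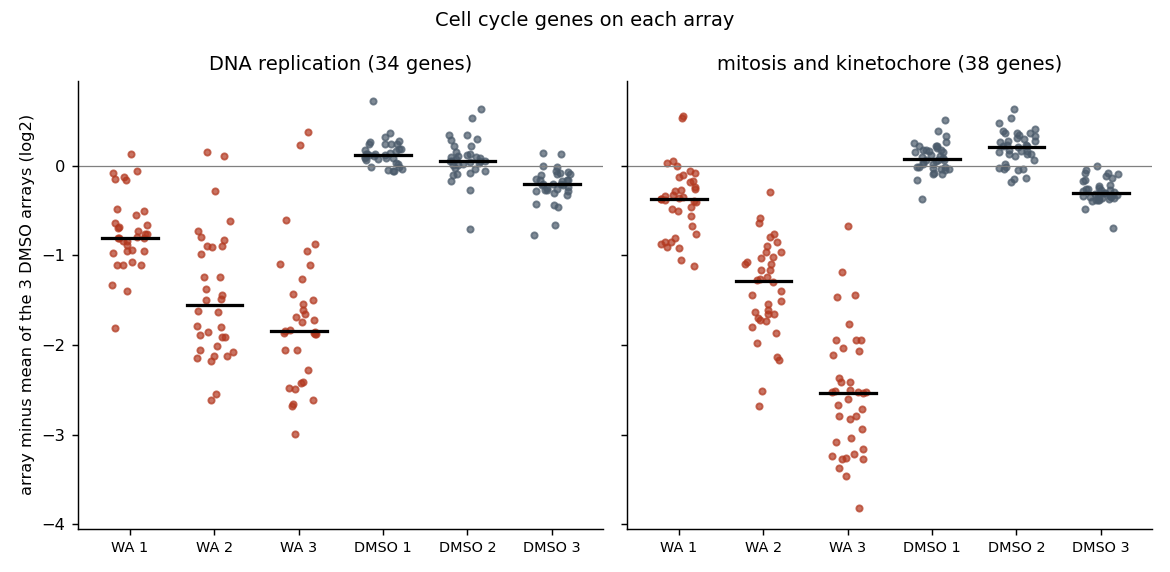
Log2 difference of each array from the mean of the 3 DMSO arrays for 34 DNA replication genes on the left and 38 mitosis genes on the right, one point per gene, with a black bar for the median. Medians for mitosis are -0.37, -1.29 and -2.53 on WA replicates 1, 2 and 3, and the DMSO medians are 0.076, 0.21 and -0.30.

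The cell cycle homology region, TTTGAA or TTCGAA on both strands, was found in 22 of 30 matched promoters of the mitosis list (73.3%), against 11.3% of the promoters of tested genes, and the CCAAT box in 22 of 30 as well (73.3% against 37.3%). The same 2 motifs were in 6.67% and 60.0% of the matched promoters of the replication list. The 2 changed mitosis genes with the largest difference that hold the first motif, again picked with values known, are shown with it in capitals, TOP2A at chr17:40417847-40418146 on the minus strand and CDK1 at chr10:60778081-60778380 on the plus strand. It begins 194 and 151 bases before the start in TOP2A and 161 in CDK1.
TOP2A: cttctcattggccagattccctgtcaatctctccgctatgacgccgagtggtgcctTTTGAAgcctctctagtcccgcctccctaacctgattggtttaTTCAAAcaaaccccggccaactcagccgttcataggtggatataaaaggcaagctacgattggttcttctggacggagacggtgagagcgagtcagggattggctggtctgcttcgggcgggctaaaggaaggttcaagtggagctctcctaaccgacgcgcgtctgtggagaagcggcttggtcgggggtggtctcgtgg
CDK1: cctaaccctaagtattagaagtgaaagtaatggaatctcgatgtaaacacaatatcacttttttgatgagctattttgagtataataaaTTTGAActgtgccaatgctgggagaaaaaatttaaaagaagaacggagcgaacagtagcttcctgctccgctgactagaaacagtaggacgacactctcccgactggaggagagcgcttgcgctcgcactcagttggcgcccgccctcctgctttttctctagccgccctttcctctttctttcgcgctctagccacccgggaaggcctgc

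MYCN, the neuroblastoma oncogene that SK-N-SH carries without amplification, had levels of 4.46, 4.43 and 4.31 with WA, against 8.16, 8.25 and 6.57 with DMSO. It was detected on all 3 DMSO arrays and on no WA array, and was at least 6.51-fold lower with WA (adjusted p 0.0086). MYC differed by -0.97 ± 0.27 (95% interval -1.59 to -0.34) and did not pass, with an adjusted p of 0.0501, and 0.0357 with the replicate block. In the MYC network of 14 genes the repressor MXD1 was higher by 0.97 ± 0.18, and MXD3 (-1.93 ± 0.50) and the pyrimidine enzyme CAD (-1.18 ± 0.23) were lower along with MYCN. Ribosome biogenesis, a known MYC output, had 3 of 25 lower and none higher, where 7.06% of all genes were lower, with a median of -0.34. The 3 were FBL at -0.94 ± 0.23, NOP14 at -0.83 ± 0.17 (other probe -0.47) and BOP1 at -0.80 ± 0.21. In IMR-32 the same list had a median of -0.47 with 11 lower and none higher, where 4.51% of all genes were lower. A part of MYCN in this list was not tested.

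Neuronal and adrenergic genes leaned lower. Over 4 such lists 10 of 61 measured genes were lower and 2 higher, where 7.06% of all genes were lower and 8.2% higher. The median of the 61 was -0.693. With the replicate block 30 were lower and 3 higher, where 11.3% of all genes were lower and 11% higher. Against the DMSO mean, the list median for neuronal cytoskeleton and growth was -0.25, -0.73 and -1.55 with WA, against 0.30, 0.32 and -0.46 with DMSO, so DMSO replicate 3 lay below WA replicate 1. For secretory granules and neuropeptides it was -0.13, -0.92 and -0.19 with WA, against 0.14, -0.093 and -0.11 with DMSO, and WA replicates 1 and 3 lay close to DMSO replicates 2 and 3. DMSO replicate 3 was the lowest DMSO array in the catecholamine list at -0.71 and in the adrenergic list at -0.41. Among the adrenergic core transcription factors 4 of 16 were lower, INSM2 with 6.58, 6.37 and 5.00 with WA, against 10.73, 10.79 and 8.92 with DMSO, SOX11 at -2.20 ± 0.28, GATA2 at -1.61 ± 0.45 and PHOX2A at -1.32 ± 0.34, and 7 were lower with the block. The WA and DMSO levels of GATA2 overlapped (adjusted p 0.0488), and it lost the threshold in 8 of 19 alternative runs. GATA3, a core factor of the same circuit, differed by -0.46 ± 0.32 and did not pass (adjusted p 0.344). In secretory granules and neuropeptides 3 of 16 were lower and 8 with the block. CHGA, chromogranin A of dense-core granules, had 10.69, 9.38 and 7.86 with WA, against 12.66, 12.57 and 11.33 with DMSO, without overlap but with 1 DMSO array well below the other two, and differed by -2.88 ± 0.68 (adjusted p 0.0302). The neuropeptide galanin, GAL, differed by -2.77 ± 0.49 and the release protein SNAP25 by -1.42 ± 0.36, whereas the peptide precursor VGF was higher by 1.21 ± 0.26.

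Of 6 catecholamine genes 1 was lower, the monoamine oxidase MAOA at -1.48 ± 0.24 (adjusted p 0.0131), and 4 with the block. Neuronal cytoskeleton and growth genes had 2 of 23 lower, STMN2 at -1.56 ± 0.37 and GAP43 at -1.31 ± 0.24, near the share of 7.06% over all genes. In that list 1 was higher, UCHL1 at 0.87 ± 0.19, and with the block 11 were lower, where 11.3% of all genes were lower. Nicotinic receptor subunits CHRNA3 and CHRNB4 were lower, with differences of -2.28 ± 0.41 and -1.33 ± 0.36. Other genes with large falls included the homeobox factor CUX2 at -3.11 ± 0.56, TRIL at -3.01 ± 0.24, the retinol receptor STRA6 at -2.94 ± 0.36, the growth factor binding protein IGFBP3 at -2.85 ± 0.73 and the adenylate cyclase ADCY1 at -2.76 ± 0.63. CUX2 was detected on 2 WA arrays and TRIL on 1.

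Mesenchymal genes showed no common direction. Of 31 surface and matrix genes 2 were higher and 5 lower, with a median of -0.14. VIM, the intermediate filament vimentin and a known binding target of WA, had 14.11, 14.53 and 14.64 with WA, against 14.28, 14.32 and 14.49 with DMSO, overlapping, and a difference of 0.063 ± 0.20 with a 95% interval of -0.39 to 0.52 (adjusted p 0.846). THBS1, thrombospondin 1, was lower (-2.02 ± 0.41), as were the growth factor receptors PDGFRA (-1.62 ± 0.35) and PDGFRB (-1.25 ± 0.29), while LOX, a collagen cross-linking oxidase, was higher by 1.27 ± 0.30 and the matrix protein CCN1 by 1.26 ± 0.33. Among 18 regulators of the mesenchymal state FOSL1 and FOSL2 were higher, by 1.45 ± 0.30 and 0.99 ± 0.26, and NOTCH3 was lower (-1.17 ± 0.26).

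Several housekeeping groups stayed near the median of all genes. Cytosolic ribosomal proteins had 2 higher and 1 lower of 41 with a median of -0.094, respiratory complex I had 1 lower of 20, and complexes III to V had none of 27 past the threshold. Sterol synthesis had 1 lower of 16, the lanosterol synthase LSS at -1.25 ± 0.28, and glycolysis had 1 higher of 20, the glucose transporter SLC2A3 at 2.25 ± 0.45. Replication-dependent histones had 5 of 15 higher and 1 lower, with a median of 0.79, or 0.71 with the members below background in one group at their bound. H4C8 had 8.24, 9.40 and 8.82 with WA, against 4.87, 5.22 and 5.93 with DMSO, detected on 2 DMSO arrays, and differed by 3.48 ± 0.36, while H4C3 was lower (-1.79 ± 0.38). Probes of histone genes may hybridise to near-identical copies. Among small nuclear RNAs and their partners 5 of 11 were higher and none lower, where 8.2% of all genes were higher. Of 3 measured ribosomal RNA genes 2 were higher as well, RNA5S9 by 2.47 ± 0.34 and RNA28SN5 by 1.47 ± 0.37. What these rises have in common was not tested. RN7SK, which holds the elongation factor P-TEFb in check, had 10.78, 11.37 and 10.03 with WA, against 7.46, 6.92 and 6.99 with DMSO, without overlap. The spliceosomal RNA genes RNU4-2, detected on 1 DMSO array, and RNU1-1 differed by 2.67 ± 0.47 and 1.24 ± 0.32, and copies of these genes are near-identical, so the source gene is uncertain.

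The response was then set against that of IMR-32, in which the same treatment changed 1348 genes (11.5%) in a fit of 12 arrays, 820 higher (7%) and 528 lower (4.51%). Of the genes changed in SK-N-SH 530 (29.6%) changed the same way in IMR-32, which is 39.3% of the genes changed there, and 8 changed the opposite way. The test of the difference itself, the change in SK-N-SH minus the change in IMR-32, passed for 218 genes with a positive difference (1.86% of those tested) and 245 with a negative one (2.09%), together 3.95%. Genes were kept by detection in SK-N-SH alone, and 76 of these 463 were not well above background in IMR-32 under either treatment, which leaves 175 positive and 212 negative differences in genes above background in at least 1 IMR-32 group. In amino acid supply 5 of 11 transporters and 5 of 13 genes of serine, asparagine and one-carbon synthesis passed that test, all more positive in SK-N-SH. SLC7A5 changed by 2.67 in SK-N-SH and 0.19 in IMR-32, a difference of 2.48 ± 0.29 (adjusted p 0.00269). MTHFD2 changed by 1.79 in SK-N-SH and -0.25 in IMR-32, a difference of 2.04 ± 0.27 (adjusted p 0.00435). ATF4 differed between lines by 0.93 ± 0.21 (adjusted p 0.0369) and HMOX1 by 1.43 ± 0.48 (adjusted p 0.115), which did not pass.

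On the lower side TXNIP changed by -4.47 in SK-N-SH and -2.38 in IMR-32, a difference of -2.09 ± 0.35 (adjusted p 0.0119). BCL2 differed by -1.29 ± 0.33 (adjusted p 0.0496) and the neuronal growth protein GAP43 by -1.42 ± 0.35 (adjusted p 0.0464). MYCN fell in SK-N-SH by at least 6.51-fold, changed by -0.29 in IMR-32 (adjusted p 0.662), and differed between lines (adjusted p 0.0103). The mitosis list had a median of -1.44 in SK-N-SH and 0.042 in IMR-32, yet none of its 38 members passed the test of the difference. For DNA replication the median was -1.47 in SK-N-SH and -0.60 in IMR-32, with 1 of 34 past it.

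Among genes with the largest difference between lines, CEBPD, a C/EBP transcription factor, changed by 1.18 ± 0.55 in SK-N-SH (adjusted p 0.178) and -2.77 ± 0.46 in IMR-32 (adjusted p 0.00365), a difference of 3.95 ± 0.65 (adjusted p 0.0111). CA12, a carbonic anhydrase, did likewise, with a difference of 2.98 ± 0.49 (adjusted p 0.0111). LOX, higher in SK-N-SH, was not well above background on the WA arrays of IMR-32 (difference between lines: adjusted p 0.00392). HSPA1A and the microRNA gene MIR221 were not well above background in IMR-32 under either treatment, so no difference between lines is given for them. In the other direction AKR1C3 changed by 1.56 in SK-N-SH and 5.55 in IMR-32, a difference of -3.99 ± 0.51 (adjusted p 0.00403). Its paralogue AKR1C2 changed by 0.93 ± 0.30 in SK-N-SH (adjusted p 0.0725) and differed between lines by -3.45 ± 0.45 (adjusted p 0.00431). The close sequences of AKR1C2 and AKR1C3 make the source gene uncertain. The neurofilament NEFM differed by -3.32 ± 0.76 (adjusted p 0.0372), the phosphatase PPEF1 by -3.48 ± 0.71 (adjusted p 0.0269) and HEY1, a Notch-induced repressor, by -3.03 ± 0.40 (adjusted p 0.00457). A negative difference need not be a fall in SK-N-SH, where HEY1 changed by 0.014 ± 0.20 (adjusted p 0.969).

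**Figure D5:**
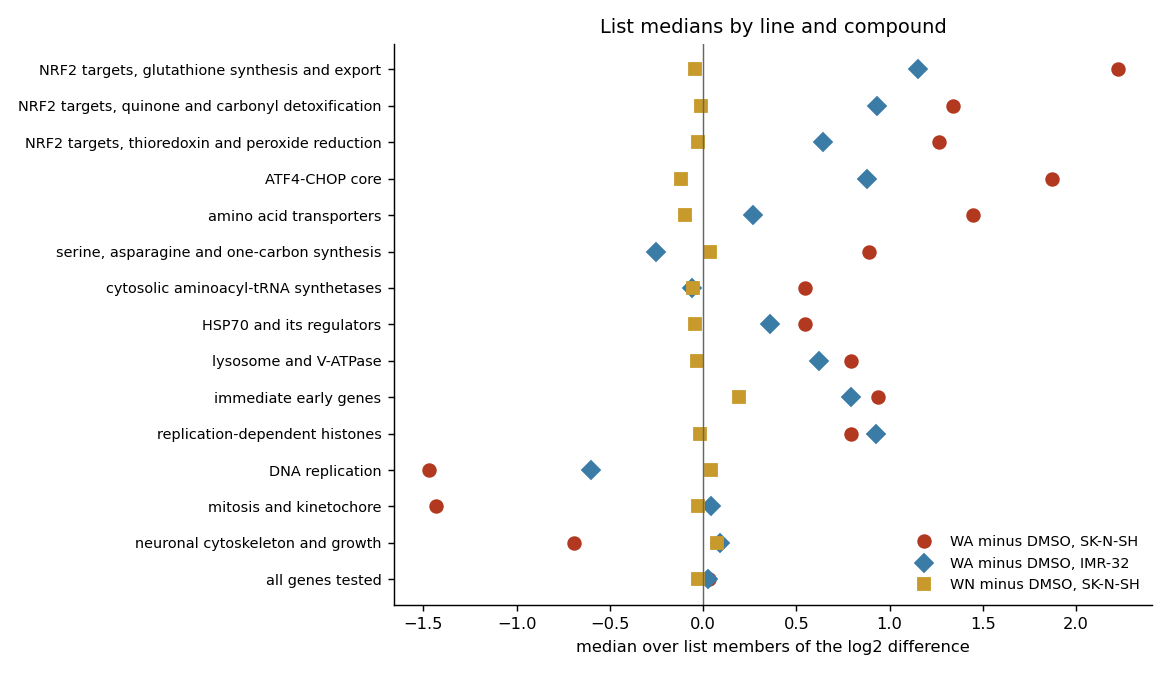
Median over the members of 15 gene sets of the log2 difference, with circles for WA minus DMSO in SK-N-SH, diamonds for WA minus DMSO in IMR-32 and squares for WN minus DMSO in SK-N-SH. Squares lie near zero, at most at 0.19 in the immediate early genes, and circles lie farther from zero than diamonds in the sets drawn other than the histones.

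WN, a withanolide of the same plant, carries its epoxide and hydroxyl groups at other positions than WA. Both were given to SK-N-SH at 1 µM for 24 h, and this was the 1 pair of compounds compared. WA and WN differed in 3634 genes (31% of those tested), 2040 higher (17.4%) and 1594 lower (13.6%) with WA. WN against DMSO gave 0 genes at an adjusted p under 0.05 in limma, where 1450 had an unadjusted p under 0.05. That fit used 9 arrays, so its spread includes that of the unlike WA replicates. HMOX1 had 12.60, 13.90 and 12.86 with WA and 5.36, 6.01 and 5.58 with WN, fully apart, and a difference of 7.47 ± 0.31 (95% interval 6.78 to 8.15, adjusted p 5.33e-06). DDIT3 was higher with WA than with WN by 3.72 ± 0.31 (adjusted p 0.000307), GCLM by 2.84 ± 0.30 (adjusted p 0.000555) and HSPA1A by 3.49 ± 0.41 (adjusted p 0.000881). RRM2 was lower with WA, with a difference of -2.29 ± 0.40 (adjusted p 0.0035), and so was TXNIP at -4.10 ± 0.25 (adjusted p 8.15e-05). GPX4 differed by -0.19 ± 0.14 (95% interval -0.51 to 0.12, adjusted p 0.316) and VIM by -0.10 ± 0.17 (95% interval -0.49 to 0.28, adjusted p 0.676). The WN arrays were dimmer, with brightest signals of 20818 to 21480 against 29826 to 36100 on the WA arrays, and this cannot be told apart from the compound.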

How the data were processed

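Illumina HumanHT-12 v4 arrays of 18 samples, 3 per group, were used. The deposited table holds bead intensity per probe before normalization and a detection p-value per probe, per the file headers. The deposited series matrix holds log2 values, and limma is named per the submitters' processing notes. Those log2 values equalled a quantile normalization of the deposited intensities without background correction, with a largest difference of 0.00024. The detection p-values deposited for WN arrays followed another scale and were rederived from intensity. Intensities were corrected and normalized with neqc (limma 3.58.1, R 4.3.3, offset 16) over all 18 arrays. Of 47224 probes 2 were left out for missing values. Probes with detection p under 0.01 on at least 3 of the 6 SK-N-SH WA and DMSO arrays were kept (19781), 15727 of them with 1 gene symbol. Each gene was read from its kept probe with the highest mean, giving 11715 genes. The fit with lmFit and eBayes used 6 arrays with 4 residual and 3.9 prior degrees of freedom, 12 for the difference between lines and 9 for WA against WN. The scripts were tested on simulated data. A gene below background on all arrays of a group has only a bound, its fold against the dimmest well-detected signal. Such folds are written as "at least".

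Samples were grouped by their labelled line and treatment. Same-numbered WA and DMSO arrays deviated together from their group means (r = 0.337, 0.221 and 0.316 over genes). The labels do not say whether same-numbered samples were grown together. The main fit did not pair them, and the fit with the number as a block was an alternative. Other alternatives were background correction, filter, probe rule, arrays in the fit, weights and each array left out. Named genes were the 15 largest changes in each direction with arrays fully apart, up to 4 changed members of each of 63 gene lists in each direction, the 8 largest differences between lines in each direction, 6 genes with the largest gap on WA replicate 1, and 18 genes of known interest. The text gives part of them. Members and lists were chosen with earlier results of these data known. Motif matches and promoters came from RefSeq windows on GRCh38.p14, read with Python 3.11.15. Of 1099 listed symbols 1025 had a named probe and 904 were tested. The number of arrays limits the precision.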

Additional observations from a re-analysis of the deposited data

Results flagged for a closer look

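The change with WA in SK-N-SH minus that in IMR-32 passed the threshold in several named genes by the test of the difference in 12 arrays. Positive differences were 3.95 ± 0.65 in CEBPD, 2.98 ± 0.49 in CA12, 2.48 ± 0.29 in SLC7A5, 2.04 ± 0.27 in MTHFD2 and 0.93 ± 0.21 in ATF4. Negative ones were -3.99 ± 0.51 in AKR1C3, -3.45 ± 0.45 in AKR1C2, -3.48 ± 0.71 in PPEF1, -3.32 ± 0.76 in NEFM, -3.03 ± 0.40 in HEY1, -2.09 ± 0.35 in TXNIP, -1.29 ± 0.33 in BCL2 and -1.42 ± 0.35 in GAP43. Not all of these were falls in SK-N-SH, where AKR1C3 changed by 1.56, AKR1C2 by 0.93 and HEY1 by 0.014. The remaining genes were below background in at least 1 group and are given by adjusted p alone, LOX at 0.00392 and MYCN at 0.0103. Of 16 alternative runs, most with 1 array left out, BCL2 lost the threshold in 12, NEFM and GAP43 in 11 each. ATF4 and PPEF1 lost it in 9 each and MYCN in 1, and the other genes named here kept it in all.

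Of 4054 kept probes without a gene name 384 passed the threshold for WA against DMSO in SK-N-SH, 197 higher and 187 lower.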

How the results depend on the processing

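For WA against DMSO the count of 1788 genes became 2741 over 9 arrays, 4201 over 18 arrays, 4165 with array weights and 2607 with the replicate block, and it ran over 4 to 3012 with 1 array left out. WA replicates 1, 2 and 3 and DMSO replicates 1 and 2 each moved it by more than 1.5 times. For the difference between lines 463 became 996 with the replicate block and 786 over 18 arrays, and 101 to 1950 with 1 array left out, where each of the 12 arrays moved it that far. WA against WN gave 3634 genes, 4643 with the replicate block and 2053 to 4308 with 1 array left out, and WN replicates 1 and 2 moved it that far (2063 and 2053). The difference in VIM turned to -0.046 without WA replicate 3 and was 0.22 without WA replicate 1, and against WN it ran over -0.21 without WA replicate 3 to 0.056 without WA replicate 1. In each case the cause was not tested. Without a filter 1470 genes passed, with the deposited matrix 1857 and with the 6 arrays normalized alone 1777. All 185 gene values in the text past their threshold kept their direction under each alternative run, and 138 of them stayed past it under those that left out no array. For WA against DMSO with 1 array left out, the direction was fixed beforehand in genes whose groups did not overlap. Of 1196 list medians under alternatives 35 changed sign, in 16 lists. A p that passed depends on few arrays, and dim probes limit what can be said of weakly expressed genes.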

Other observations

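Further groups are given as values. In the circadian clock list of 14 genes BHLHE40 (1.42 ± 0.31) and NFIL3 (0.95 ± 0.23), both repressors, were higher, and PER2 (-1.49 ± 0.25) and CRY1 (-0.99 ± 0.17), the negative limb of the clock, were lower. Of 12 genes of MHC class I presentation HLA-E (2.13 ± 0.39) and HLA-C (0.97 ± 0.22) were higher and none was lower. Fatty acid synthesis had 2 of 11 higher, the elongase ELOVL6 (0.84 ± 0.16) and the desaturase FADS1 (0.70 ± 0.17). Of 7 measured metallothioneins and zinc exporters MT1F was lower (-1.96 ± 0.44) and the exporter SLC30A1 higher (1.06 ± 0.29), and metallothionein paralogues are close in sequence. Tubulins had TUBA4A higher (1.26 ± 0.29) and TUBG1 lower (-0.64 ± 0.17) of 12. Actin, tropomyosin and smooth muscle genes had none of 16 past the threshold in limma, where 2 had an unadjusted p under 0.05. The neurotrophin BDNF was higher in SK-N-SH (1.59 ± 0.29, other probes 0.86 to 1.48). The 6 other genes of its list were negative and did not pass, with a list median of -0.69, and 3 of them were lower with the replicate block.

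Genes higher with WA had a median span in RefSeq of 22113 bp, genes lower with WA 30920 bp and genes that did not pass 29003 bp, values given without a test. Among 194 long noncoding RNA genes the median difference was 0.079, among 107 small nucleolar RNA genes -0.084 and among 33 microRNA genes 0.22. Among the 11 genes that RefSeq classes as small nuclear RNA it was 1.29, with a range of -0.825 to 3.6, and 8 were higher.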
